A study of Rattus norvegicus with 40 samples.

Results

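The comparison described here set 5 arrays of hypoxic preconditioned cortex, labelled PC 11 to PC 15, against 5 arrays of sham cortex, labelled Sham 11 to Sham 15. These 10 arrays were chosen by their labels alone, out of 40 arrays in the series. The source is the cerebral cortex of the rat, from which total RNA was hybridised to 1-colour Affymetrix expression arrays, and per the labels the sham samples went through the same kind of incubation in normal oxygen. The series holds preconditioned and sham samples with the numbers 1 to 20, listed in 4 runs of 5 numbers. What a run of numbers stands for is not given in the sources used here, nor are the strain, the age, the oxygen level, the length of exposure or the time of collection. The labels name no genetic change in either group. The animals behind the samples are not described, so every p-value is set against a spread between samples that may be partly technical.

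Hypoxic preconditioning is a mild exposure to low oxygen that leaves the brain more tolerant of a later, harmful shortage of oxygen or blood. When oxygen falls, hypoxia-inducible factors (HIF) escape the hydroxylases that mark them for breakdown and switch on genes for glucose uptake, glycolysis and vessel growth. Astrocytes, the glial cells that wrap vessels and synapses, answer many kinds of stress with more of the filament protein GFAP, and brain vessels can rebuild the collagen and laminin sheet, the basement membrane, on which their endothelial cells sit.

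Of 31042 probe sets analysed, 18625 were bright enough to be tested, and these covered 10304 named genes. Intensities were floored at 16 and put on the log2 scale, and a difference is always preconditioned minus sham on that scale, with its standard error (SE) from limma, a linear model fitted to every probe set with n = 5 arrays per group. A probe set was called where its adjusted p, corrected over all 18625 by the method of Benjamini and Hochberg, was under 0.05. For a gene with several probe sets, the brightest over all 40 arrays stood for the gene. In bulk tissue, fewer cells of a type and less RNA per cell cannot be told apart.

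Array medians lay between 5.75 and 5.80 in preconditioned cortex and between 5.72 and 5.80 in sham cortex (log2, exact permutation test, two-sided p = 0.286; the smallest p that 5 against 5 allows is 0.00794). The ratio of 3' to 5' actin probe sets, which climbs as RNA degrades, was 1.38 to 1.76 in preconditioned and 1.55 to 1.65 in sham cortex (exact permutation p = 0.976). Both ends of the preconditioned range were PC 11, at 1.76, and PC 12, at 1.38, while the other 8 arrays lay between 1.55 and 1.65. The same ratio for Gapdh was 1.05 in PC 11 and 1.06 in PC 12, the 2 highest, with Sham 15 next at 1.04. By the female transcript Xist and the Y-linked gene Eif2s3y, numbers 11 and 12 were female and numbers 13, 14 and 15 male in both groups alike. PC 11 and PC 12 stood apart from the other 8 arrays: on the leading principal component, which held 20.0% of the variance, they lay at -31.8 and -17.1, against -2.17 to 11.8 for the others. The part of these quality values in the results was not tested. The results below are therefore also given without them where that matters. Neuronal genes of the cortex were bright in both groups, with Snap25 at a mean log2 level of 11.81 and Slc17a7, the vesicular glutamate transporter of cortical neurons, at 9.03 in preconditioned cortex, against 11.79 and 8.91 in sham cortex. Of the 10 measured choroid plexus and ependyma markers and the 5 measured blood cell markers, none had an unadjusted p under 0.05 in limma. The summed intensity of the choroid plexus and ependyma markers was 3714 to 5478 in preconditioned and 3455 to 5945 in sham arrays. Transthyretin, Ttr, made by the choroid plexus, was nonetheless bright, at a mean log2 level of 11.92 in preconditioned and 12.05 in sham cortex.

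At the adjusted threshold 13 probe sets were called, 9 higher and 4 lower in preconditioned cortex, which is 0.0698% of those tested (0.0483% higher and 0.0215% lower). At an unadjusted p under 0.05 there were 1835 probe sets, or 9.85% of those tested, 954 higher (5.12%) and 881 lower (4.73%). Counted once per gene, over 10304 genes, 534 were higher and 475 lower. That balance depended on the scaling, with 323 higher and 597 lower after median centring. All 13 called probe sets had preconditioned and sham arrays that did not overlap, while over all probe sets tested 412, or 2.21%, did not overlap. Of the 13, 12 carried the name of 1 gene: Gfap, Timp1, Col4a1, Vwf, Mt2A, Pla1a, Prkce and Polr2a were higher, and Apln, Bmper, Slc38a5 and a probe set of Cacybp were lower. The calls leaned on single arrays, PC 12 most of all. Without PC 12, 3 probe sets were called, those of Col4a1, Pla1a and Apln, all among the 13. With numbers 11 and 12 left out of both groups, 0 were called and 927 (4.98%) had an unadjusted p under 0.05 in limma. Over the 10 ways to leave out 2 of the 5 numbers, the calls ranged from 0 to 9 and were 0 in 7. The 9 came without numbers 13 and 14. Without numbers 11 and 15, 1 was called and 929 (4.99%) had an unadjusted p under 0.05 in limma. Without numbers 13 and 15, or without 14 and 15, 0 were called. There 1640 (8.81%) and 1708 (9.17%) had an unadjusted p under 0.05 in limma. With numbers 13, 14 and 15 left out of both groups, 14 were called, 2 of them among the 13. At an unadjusted p under 0.05 there were then 2031 in limma. What set these counts was not tested.

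**Figure D1:**
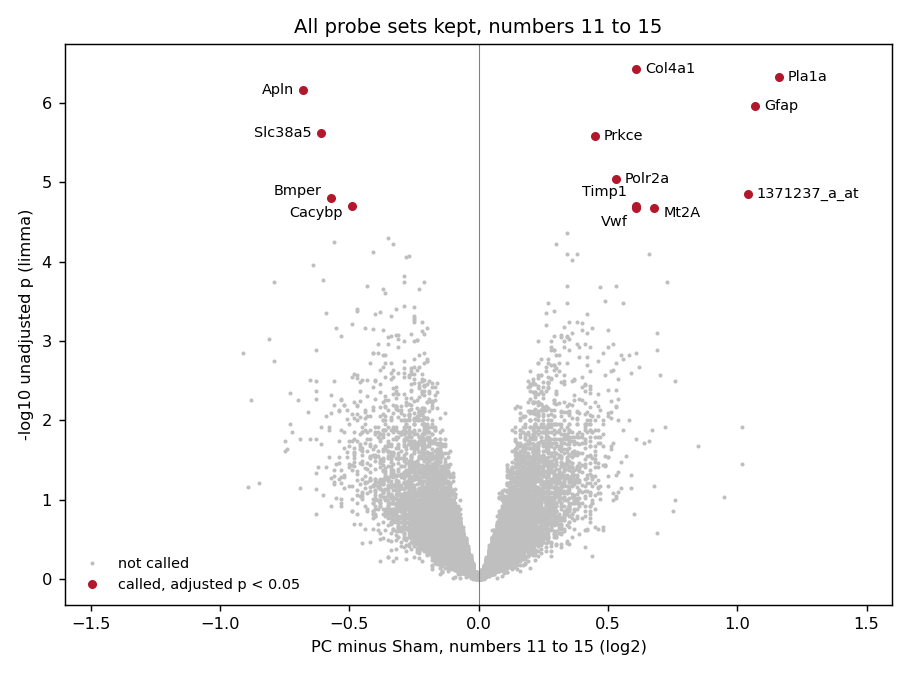
Every probe set tested, with the log2 difference between preconditioned (PC) and sham arrays of numbers 11 to 15 on the x axis and -log10 of the unadjusted limma p on the y axis; red points are the 13 called at an adjusted p under 0.05. The 9 called on the right are higher after preconditioning and the 4 on the left lower, among 18625 in all.

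The clearest astrocyte change was in Gfap, the intermediate filament protein of astrocytes. Its intensity was 817, 1619, 1156, 1070 and 1221 in PC 11 to PC 15, against 470, 702, 572, 532 and 489 in Sham 11 to Sham 15. Every preconditioned array lay above every sham array, and array 12 was the highest of its own group on both sides. Gfap rose by 1.07 ± 0.19 (SE, limma adjusted p = 0.00509), or 2.10-fold, and by 1.11 with numbers 11 and 12 left out, at a limma adjusted p of 0.315. Without PC 12 the difference was 0.95 at a limma adjusted p of 0.0694. The change did not extend to the astrocyte markers as a group. Of the 18 measured, 8 were above and 10 below 0, the median difference was -0.02 against 0.01 over all genes tested, and besides Gfap only the glycolytic enzyme Aldoc had an unadjusted p under 0.05 (0.28, adjusted p = 0.401). The water channel Aqp4 differed by -0.11 ± 0.09 (limma adjusted p = 0.763). Summed over the 18 genes, intensity was 17117 to 19543 in preconditioned and 17507 to 19325 in sham arrays.

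Genes known from reactive astrocytes, meaning astrocytes that respond to injury, were mixed. Among 21 measured, Gfap and Timp1 were called higher, 4 genes had an unadjusted p under 0.05 upward (19.0% of the list, against 5.18% of all genes tested) and 1 downward. Timp1, an inhibitor of matrix metalloproteinases that astrocytes and vessel cells release, had intensities of 132, 192, 132, 108 and 130 in preconditioned cortex, against 108, 80.2, 81.7, 90.0 and 90.8 in sham cortex. PC 14 and Sham 11 nearly met at 108, and the other preconditioned arrays were clear of all sham arrays. Timp1 rose by 0.61 ± 0.13 (limma adjusted p = 0.03), or 1.52-fold. Its adjusted p passed 0.05 in 7 of the 10 fits that each left out 1 array, reaching 0.197 without PC 12. Vim, the filament protein of immature and reactive astrocytes, differed by 0.29 ± 0.08 (limma adjusted p = 0.21), with PC 11 and PC 12 at 1408 and 1487 and the other 3 preconditioned arrays between 1067 and 1139, inside the sham range of 828 to 1136 or just past it.

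Timp1 also belongs to a list of interleukin-6 family cytokines and STAT3 targets, the signalling route by which such cytokines act on glia. Its 16 measured genes had a median difference of 0.17, and Timp1 was the only one called. At an unadjusted p under 0.05, 5 were upward (31.2%, against 5.18% of all genes tested) and none downward. The protease inhibitor A2m (alpha-2-macroglobulin), an acute phase protein in the rat, had the largest difference of the list. It reached 78.5, 90.6, 85.7, 74.0 and 94.7 in preconditioned arrays, against 56.5, 48.6, 43.3, 55.9 and 65.1 in sham arrays. The groups did not overlap, and the difference was 0.66 ± 0.15 with a limma adjusted p of 0.0678. Stat3 itself differed by -0.05. With numbers 11 and 12 left out the median of the list was 0.10. At an unadjusted p under 0.05 upward there were then 3, as without PC 12 and with quantile normalization, and 2 with median centring.

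**Figure D2:**
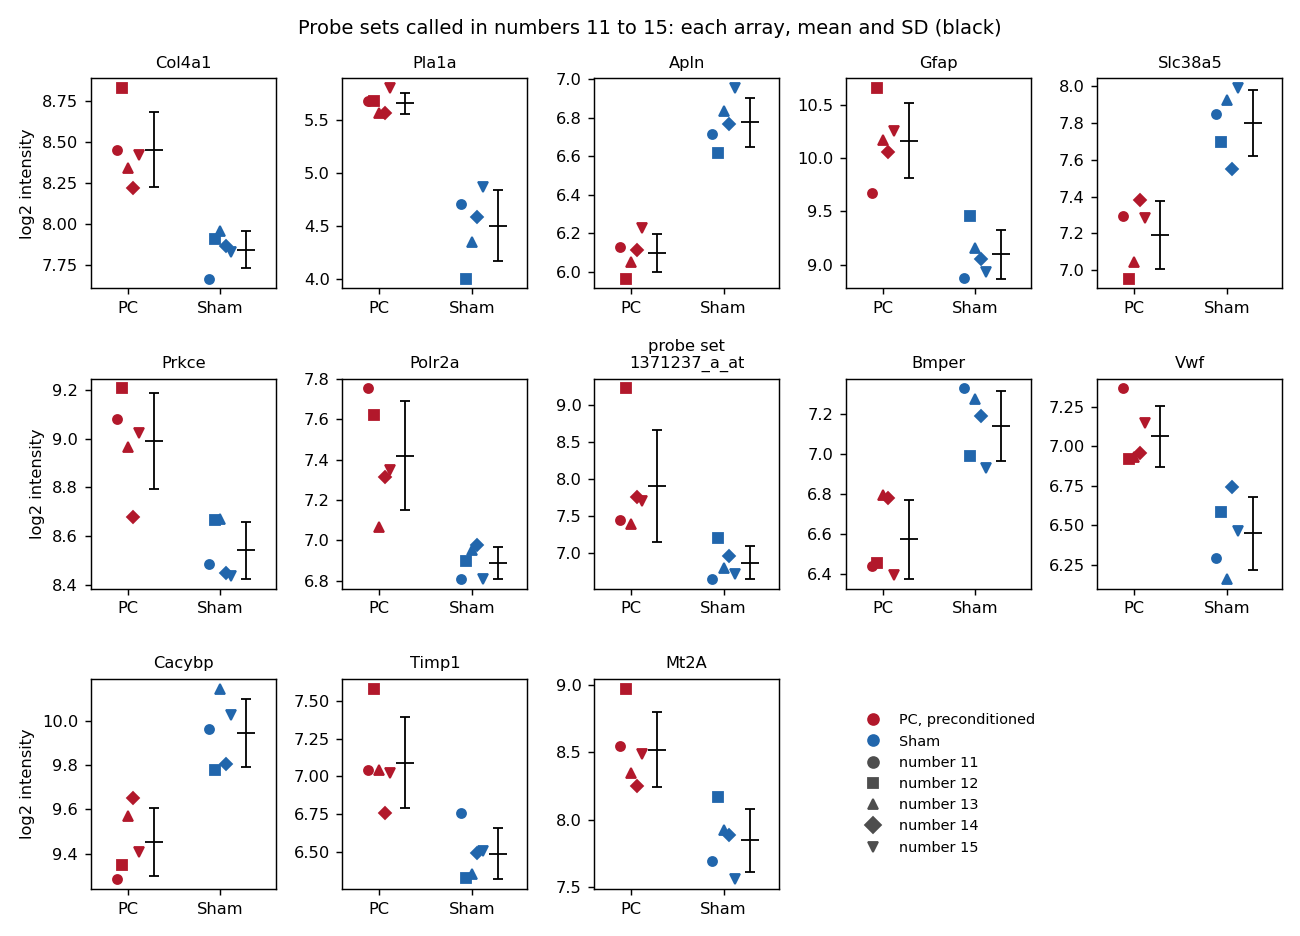
Log2 intensity of the 13 called probe sets in each array of numbers 11 to 15, preconditioned (PC, red) left of sham (blue); symbols mark the sample number and black bars the mean and SD of 5 arrays. In every panel the 2 groups are separate. For Gfap, Timp1, Mt2A, Col4a1, Prkce and the probe set without a single gene, PC 12 (square) is the highest array.

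Metallothioneins are small proteins that hold zinc and copper and take up reactive oxygen species. Mt2A, a widely expressed and stress-induced member, measured 374, 503, 325, 304 and 359 in PC 11 to PC 15, against 207, 288, 242, 236 and 188 in the sham arrays. The lowest preconditioned array, at 304, lay just above the highest sham array, at 288. Mt2A rose by 0.68 ± 0.14 (limma adjusted p = 0.03), or 1.6-fold, by 0.56 without PC 12 (limma adjusted p = 0.197) and by 0.57 with numbers 11 and 12 left out. Its limma adjusted p rose above 0.05 in 7 of the 10 fits that left out 1 array. The brain-enriched Mt3 differed by 0.27 ± 0.11 (limma adjusted p = 0.403) with overlapping groups. Of 17 measured genes for metallothioneins and zinc transport, 11 were above 0. These 2 alone had an unadjusted p under 0.05, both upward (11.8%, against 5.18% of all genes tested).

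Because Mt2A is a textbook case of a gene switched on by metal response elements, its upstream bases are shown, with each match to the element's core in capitals. The core searched was TGCACNC or TGCGCNC on both strands. The sequence is RefSeq's, build GRCr8, chr19:10838709-10838958, minus strand, and ends at the base before the transcription start.

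Mt2A: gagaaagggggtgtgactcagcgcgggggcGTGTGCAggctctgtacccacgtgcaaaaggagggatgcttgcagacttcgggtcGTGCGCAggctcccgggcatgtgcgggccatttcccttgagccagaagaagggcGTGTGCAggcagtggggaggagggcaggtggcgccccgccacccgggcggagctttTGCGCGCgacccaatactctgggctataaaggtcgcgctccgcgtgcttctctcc

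These 250 bases hold 4 metal response cores. They also hold 5 matches to the hypoxia response core, ACGTG or GCGTG on either strand, of which 2 overlap a metal response core. Among the 12 called genes, 11 had a promoter in the RefSeq table. A metal response core lay in the upstream bases of 3 of these 11, against 20.6% of all 33469 promoters of the same length, and a hypoxia response core in 3 of 11, against 36.7%. A match says only that these letters are present.

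Vessel genes moved in both directions. On the side of the basement membrane, Col4a1, the alpha 1 chain of type IV collagen, was measured by 2 probe sets. The called one, 1372439_at, read 349, 454, 324, 298 and 342 in preconditioned cortex, against 203, 240, 248, 233 and 227 in sham cortex. The groups were well apart and PC 12 was the highest. The difference was 0.61 ± 0.10 (limma adjusted p = 0.00423), or 1.52-fold. The call held when any 1 of the 10 arrays was left out, with a highest limma adjusted p of 0.0345. The brighter probe set, 1373245_at, differed by 0.34 ± 0.08 (limma adjusted p = 0.0678), in the same direction but with PC 15 at 325 below Sham 13 at 331.

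Col4a2, the partner chain that joins Col4a1 in the collagen molecule, differed by 0.30 ± 0.13 (limma adjusted p = 0.432). It was at 0.76 ± 0.19 over numbers 11 and 12 and at 0.00 ± 0.14 over numbers 13, 14 and 15 (limma adjusted p = 0.0787 and 1). Numbers 11 and 12 were the females and held PC 11 and PC 12. Sex and array quality therefore cannot be told apart in this split. The 2 genes start head to head, only 76 bases apart, and so share a promoter, which is why the bases between their starts are printed here. They run from the Col4a2 start on the left to the Col4a1 start on the right (RefSeq, GRCr8, chr16:84885521-84885596, plus strand, no part marked).

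Col4a2 and Col4a1: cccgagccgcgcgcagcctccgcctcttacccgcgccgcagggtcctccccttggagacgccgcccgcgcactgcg

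The list of basement membrane genes and their inhibitors, which includes Col4a1, leaned the same way. Of 25 measured, 8 had an unadjusted p under 0.05 upward and none downward, or 32% upward against 5.18% of all genes tested, and the median difference was 0.11. By adjusted p only Timp1 was called, since the brighter Col4a1 probe set, which was not called, stood for that gene. The laminin chain Lama4, found in endothelial basement membranes, measured 165 to 190 in preconditioned and 133 to 142 in sham arrays. It differed by 0.34 ± 0.07, with a limma adjusted p of 0.0588 and no overlap. The laminin chain Lamb2 differed by 0.41 ± 0.13 (limma adjusted p = 0.268) and fibronectin, Fn1, a matrix glycoprotein of vessels, by 0.29 ± 0.10 (limma adjusted p = 0.313), the last also with no overlap. With numbers 11 and 12 left out the median of the 25 was 0.05 and 4 had an unadjusted p under 0.05, all upward. There were 5 upward without PC 12.

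Vwf, the von Willebrand factor that endothelial cells store and release for platelet binding, was called higher. It read 165, 121, 122, 124 and 142 in preconditioned cortex, against 78.4, 95.9, 71.5, 107 and 88.3 in sham cortex. The groups did not overlap, PC 11 was the highest and Sham 14 the nearest sham array. Vwf rose by 0.61 ± 0.13 (limma adjusted p = 0.03), or 1.53-fold. Leaving out 1 array took its limma adjusted p past 0.05 in 6 of 10 cases, at most 0.158 without PC 11. The 23 measured markers of endothelial and mural cells had a median difference of 0.01. At an unadjusted p under 0.05, 2 were upward, Vwf and Tie1 (8.7%, against 5.18% of all genes tested). The junction protein Ocln was the 1 downward (4.35%, against 4.61%). Their summed intensity was 3528 to 3899 in preconditioned and 3378 to 3646 in sham arrays.

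Genes for the sprouting and remodelling of vessels were lower or did not pass. Apln encodes apelin, a peptide that endothelial tip cells release and that acts on the receptor Aplnr. Apln read 69.9, 62.4, 66.2, 69.3 and 74.9 in PC 11 to PC 15, against 105, 98.0, 114, 109 and 124 in Sham 11 to Sham 15. The 5 preconditioned arrays lay close together, all below the lowest sham array. Apln fell by 0.68 ± 0.12 (limma adjusted p = 0.00423), which is a 1.6-fold higher level in sham cortex, and the call held without any 1 of the 10 arrays. A dimmer Apln probe set differed by -0.25 ± 0.15 (limma adjusted p = 0.61). Angpt2, a destabiliser of vessels, was near the dim end, at 30.1 to 50.2 in preconditioned and 34.2 to 56.8 in sham arrays, and differed by -0.19 ± 0.18 (limma adjusted p = 0.793).

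Bmper, a secreted modulator of bone morphogenetic protein (BMP) signalling that acts on endothelial cells, had 86.7, 87.6, 111, 110 and 83.9 in preconditioned cortex, against 161, 127, 155, 146 and 122 in sham cortex. All preconditioned arrays were lower than all sham arrays. Bmper fell by 0.57 ± 0.12 (limma adjusted p = 0.03). Without 1 array its limma adjusted p passed 0.05 in 6 of 10 cases, up to 0.13 without PC 12. Of 30 measured genes of BMP and TGF-beta signalling, 3 had an unadjusted p under 0.05. All 3 were lower (10%, against 4.61% of all genes tested). They were Bmper, the receptor Acvr1 (-0.39 ± 0.11, limma adjusted p = 0.202) and the target Id4 (-0.36 ± 0.12, limma adjusted p = 0.313). Acvr1 has 2 other probe sets, which differed by 0.23 and 0.17, so the probe sets of that gene disagreed in sign. Dimmer Id4 probe sets differed by 0.06, 0.07 and -0.44, so those of Id4 disagreed as well. Among the 24 angiogenesis genes measured, 2 were called lower and the median difference was -0.05. At an unadjusted p under 0.05, 3 were upward (12.5%, against 5.18% of all genes tested) and 2 downward (8.33%, against 4.61%).

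Slc38a5 carries glutamine and other small neutral amino acids across cell membranes and is found at brain vessels. It read 157, 124, 132, 167 and 156 in preconditioned cortex, against 230, 207, 243, 187 and 254 in sham cortex. PC 14 and Sham 14 came closest to each other, and the groups did not overlap. Slc38a5 fell by 0.61 ± 0.11 (limma adjusted p = 0.00822), and by 0.55 at a limma adjusted p of 0.0706 without PC 12 and 0.56 at 0.0626 without Sham 15. No other of the 22 measured genes for amino acid and glutamine transport had an unadjusted p under 0.05, and their median difference was -0.01.

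Outside these groups, Pla1a, a phospholipase that cuts phosphatidylserine, was called higher. It was dim, at 51.2, 51.1, 47.2, 47.4 and 55.7 in preconditioned cortex, against 26.1, 16.0, 20.4, 23.9 and 29.1 in sham cortex, where Sham 12 lay at the floor of 16. The preconditioned arrays hardly varied. Pla1a rose by 1.16 ± 0.19 (limma adjusted p = 0.00423), or 2.23-fold. The call held without any 1 of the 10 arrays, and the difference was 1.03 without Sham 12. Its size depended on how dim values were treated: on log2 of intensity plus 32 it was 0.59 (limma adjusted p = 0.00331).

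Prkce, protein kinase C epsilon, a kinase studied for its part in preconditioning of heart and brain, had 542, 591, 500, 409 and 520 in preconditioned cortex, against 358, 406, 407, 349 and 346 in sham cortex. PC 14 at 409 and Sham 13 at 407 all but met. Prkce rose by 0.45 ± 0.08 (limma adjusted p = 0.00822). The limma adjusted p was 0.0767 without PC 12 and 0.0626 without Sham 15. Polr2a, the large subunit of RNA polymerase II, had 216, 197, 134, 159 and 163 in preconditioned cortex, against 112, 119, 124, 126 and 112 in sham cortex. PC 11 and PC 12 were the highest by a wide margin. Polr2a rose by 0.53 ± 0.10 (limma adjusted p = 0.0242). The difference was 0.84 over numbers 11 and 12 alone and 0.33 over numbers 13, 14 and 15, a split that also divides the sexes. Its call was lost in 4 of the 10 fits that left out 1 array, with limma adjusted p values up to 0.13.

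A probe set of Cacybp, a binding partner of the calcium sensor calcyclin, read 623 to 804 in preconditioned and 877 to 1134 in sham arrays. It fell by 0.49 ± 0.10 (limma adjusted p = 0.03), a call lost in 6 of the 10 fits that left out 1 array. Its highest adjusted p in limma among them was 0.155, with Sham 13 left out. The brighter probe set of the gene, which spanned 1263 to 1521 in preconditioned and 1363 to 1694 in sham arrays, differed by -0.20 ± 0.11 (limma adjusted p = 0.563) with overlapping groups. Probe set 1371237_a_at is annotated to several genes and is given no name. It had 173, 600, 168, 216 and 207 in preconditioned cortex, against 100, 147, 111, 124 and 105 in sham cortex, so PC 12 was far above the rest, and the difference was 1.04 ± 0.21 (limma adjusted p = 0.03). Without PC 12 it was 0.71 (limma adjusted p = 0.13).

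The hypoxia-responsive genes were only slightly displaced. Of 37 measured HIF targets and glycolytic enzymes, 12 had an unadjusted p under 0.05 upward (32.4%, against 5.18% of all genes tested) and 4 downward (10.8%, against 4.61%). None was called, and the median difference was 0.10. Vegfa, the main growth factor of vessels, had 246, 268, 300, 272 and 240 in preconditioned cortex, against 192, 208, 224, 227 and 193 in sham cortex. The groups did not overlap, and the difference was 0.34 ± 0.08 with a limma adjusted p of 0.108. Ldha, which turns pyruvate into lactate, also had no overlap, at 2200 to 2435 in preconditioned and 1736 to 2068 in sham arrays, with a difference of 0.26 ± 0.09 (limma adjusted p = 0.324). Slc2a1, which carries glucose from blood into the brain, differed by 0.24 ± 0.08 (limma adjusted p = 0.288) and the glycolytic enzyme Gpi by 0.29 ± 0.09 (limma adjusted p = 0.252).

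Other HIF targets lay near or under the sham level. Egln3, a HIF hydroxylase that is itself a HIF target, differed by -0.27 ± 0.10 (limma adjusted p = 0.346), with all preconditioned arrays lower than all sham arrays. Ak4, a mitochondrial adenylate kinase, differed by -0.28 ± 0.13 (limma adjusted p = 0.492), and Tfrc, the transferrin receptor that brings iron into cells, by -0.29 ± 0.09 (limma adjusted p = 0.264). The histone demethylase Kdm3a was at 0.12 ± 0.09 and the mTOR brake Ddit4 at -0.07 ± 0.08, both with overlapping groups. With numbers 11 and 12 left out the list had a median of 0.06, with 7 genes upward and 3 downward at an unadjusted p under 0.05, and with median centring there were 7 and 5.

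**Figure D3:**
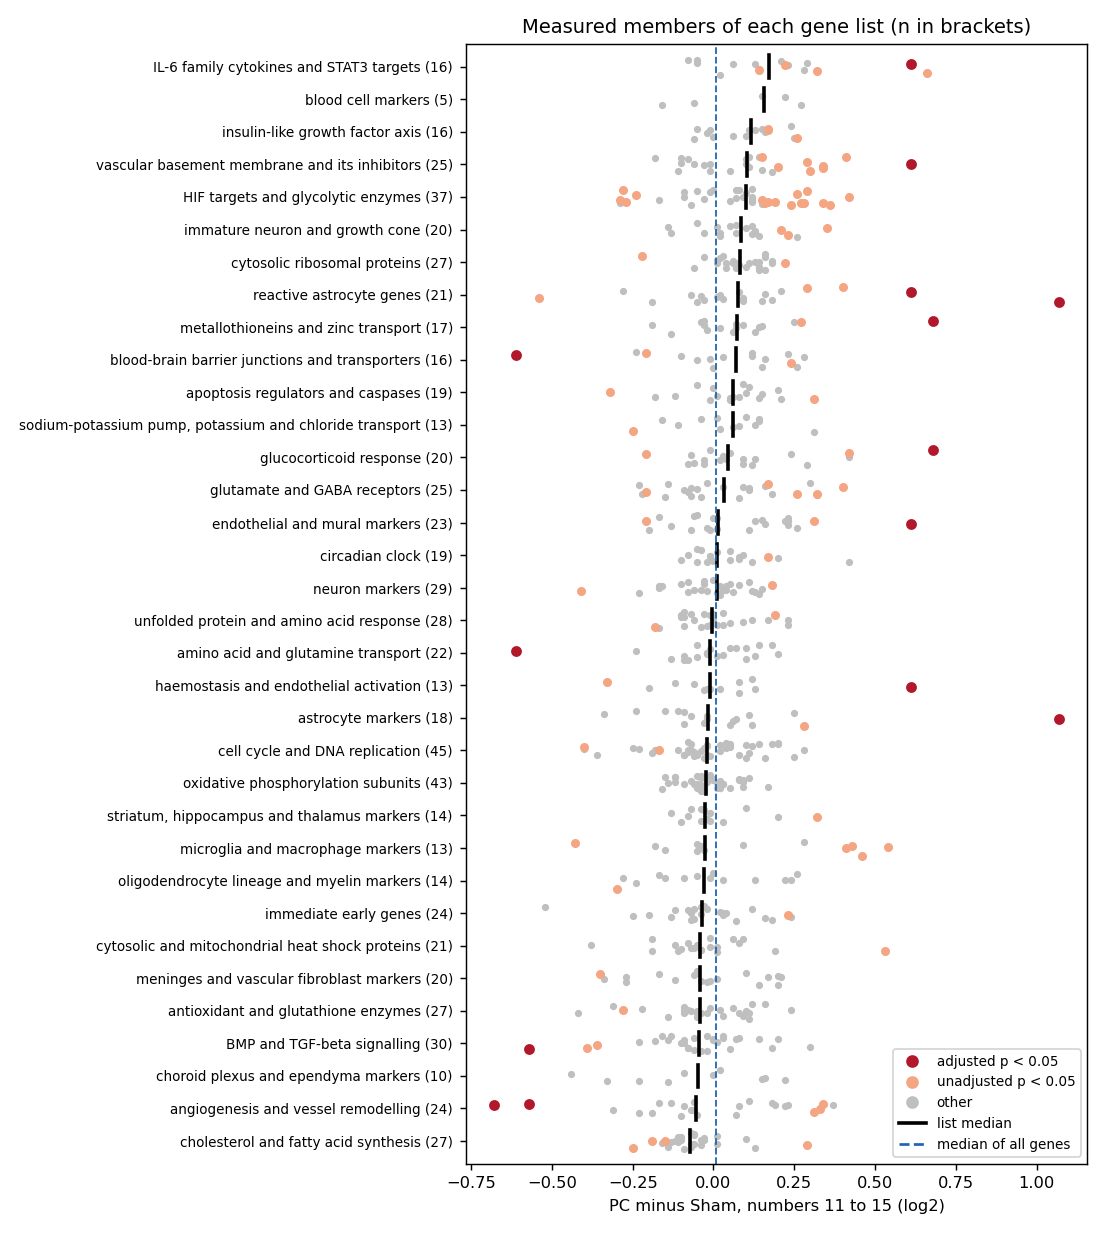
Log2 difference between preconditioned and sham arrays of numbers 11 to 15 (x axis) for each measured member of 34 gene lists (number of members in brackets); red points are called, orange points have an unadjusted p under 0.05, black bars are list medians and the dashed line is the median of all genes. The list medians lie between -0.07 and 0.17, and the called genes are single points far from the medians of their lists.

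Genes that answer neuronal firing and stress hormones had list medians near 0. Of 24 measured immediate early genes, 1 had an unadjusted p under 0.05, the nuclear receptor Nr4a2 (0.23 ± 0.10, limma adjusted p = 0.398), and the median difference was -0.03. Fos, a transcription factor switched on within minutes of activity, differed by -0.52 ± 0.26 (limma adjusted p = 0.508). Its preconditioned arrays read 27.0 to 31.2 except for PC 12 at 50.4, and its sham arrays 33.3 to 59.0. Among 20 measured glucocorticoid response genes the median was 0.05. Of these, 2 (10%, against 5.18% of all genes tested) had an unadjusted p under 0.05 upward. They were the called Mt2A and Angptl4 (0.42 ± 0.13, limma adjusted p = 0.237, no overlap). Downward there was 1 (5%, against 4.61%), Errfi1 (-0.21 ± 0.09, limma adjusted p = 0.398). Sgk1 and Fkbp5, direct targets of the glucocorticoid receptor, differed by -0.03 ± 0.08 and -0.01 ± 0.13. None of the 43 oxidative phosphorylation subunits measured had an unadjusted p under 0.05, and they spanned -0.16 to 0.17.

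Microglia markers, which mark the immune cells of the brain, split. Of 13 measured, 4 had an unadjusted p under 0.05 upward (30.8%, against 5.18% of all genes tested). They were the complement genes C1qa (0.41 ± 0.17), C1qb (0.46 ± 0.16) and C1qc (0.54 ± 0.20) and the lysosomal protease Ctss (0.43 ± 0.18). The purine receptor P2ry12, which resting microglia carry, had one downward (7.69%, against 4.61%), at -0.43 ± 0.16. None of the 5 was called, with limma adjusted p between 0.324 and 0.405. The median of the 13 was -0.03, and their summed intensity was 1204 to 1693 in preconditioned and 1234 to 1520 in sham arrays. Their part in the results for Timp1 and A2m was not tested. A second probe set of P2ry12 differed by -0.07.

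The rule for these 10 arrays also asks for pairing by sample number, so that PC 11 is set against Sham 11 and so on. The labels do not say that equal numbers belong together. Over the series, the 2 arrays of a number shared the sex in 20 of 20 numbers. In their deviations from the group means, 17 of 20 numbers correlated best with their own number, and 3 of 5 did here. With the number as a block, meaning that each preconditioned array is compared with the sham array of its number, 34 probe sets were called, 17 higher and 17 lower, or 0.183% of those tested, against 13 without it. The 2 sets of calls shared 12 probe sets, which is 92.3% of the 13 and 35.3% of the 34. Vwf was the 1 called without the block only, with a block adjusted p of 0.0591. All 13 and all 34 went the same way in 5 of 5 pairs, as did 1048 probe sets upward (5.63%) and 925 downward (4.97%) over all tested. For the 13 this follows from groups that did not overlap. The block itself favours probe sets whose pairs agree, so the agreement of the 34 is no separate support. Gfap had a limma adjusted p of 4.92e-08 with the block: its preconditioned array was 1.74 to 2.5 times the sham array of the same number in every pair.

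The 22 probe sets called with the block only included Vegfa (block adjusted p = 0.0382, limma), the brighter Col4a1 probe set (0.0374) and A2m (0.0375). Gpi had PC values of 1578, 1941, 1797, 1717 and 1586 and sham values of 1291, 1579, 1594, 1275 and 1334. These groups overlapped, yet PC was the higher in every pair, and the block adjusted p was 0.0265 (limma). The same held, downward, for P2ry12 at 0.0382. Ctss, also at a block adjusted p of 0.0382 (limma), was higher in every pair, and its groups did not overlap. RT1-DMb, a chaperone for loading peptides on class II histocompatibility molecules, differed by 0.53 ± 0.13, with a limma adjusted p of 0.108 without the block and 0.011 with it. A probe set of the glutamate transporter Slc1a1 was called higher at 0.29, whereas the brighter probe set of that gene differed by -0.02.

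Of the 17 probe sets called lower with the block, several named ones follow. Their SEs, and that of RT1-DMb, are from the fit without the block. Sfpq, a splicing factor, differed by -0.29 ± 0.07 (limma adjusted p = 0.0388 with the block and 0.102 without). Arf2, a small GTPase of vesicle traffic, read 438 to 574 in preconditioned and 645 to 790 in sham arrays and differed by -0.43 ± 0.11 (limma adjusted p = 0.0026 with the block and 0.108 without). A dimmer Arf2 probe set differed by 0.09. Ppp1r12a, the targeting subunit of myosin phosphatase, differed by -0.34 ± 0.09 (limma adjusted p = 0.0382 with the block), and its 3 dimmer probe sets lay between -0.03 and 0.21. Nol4l differed by -0.33 ± 0.07 and Memo1 by -0.29 ± 0.07, with block adjusted p values of 0.0037 and 0.0446 (limma). Fitted on the 10 arrays alone, without the other 30 to steady the estimate of spread, 3 probe sets (0.0161%) were called without the block. They were Gfap, Apln and one of Atf7ip, a chromatin protein that is not among the 13. The other 11 of the 13 were lost, with Pla1a at a limma adjusted p of 0.0528 and Col4a1 at 0.0603. With the block 1 (0.00537%), Gfap, was called.

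**Figure D4:**
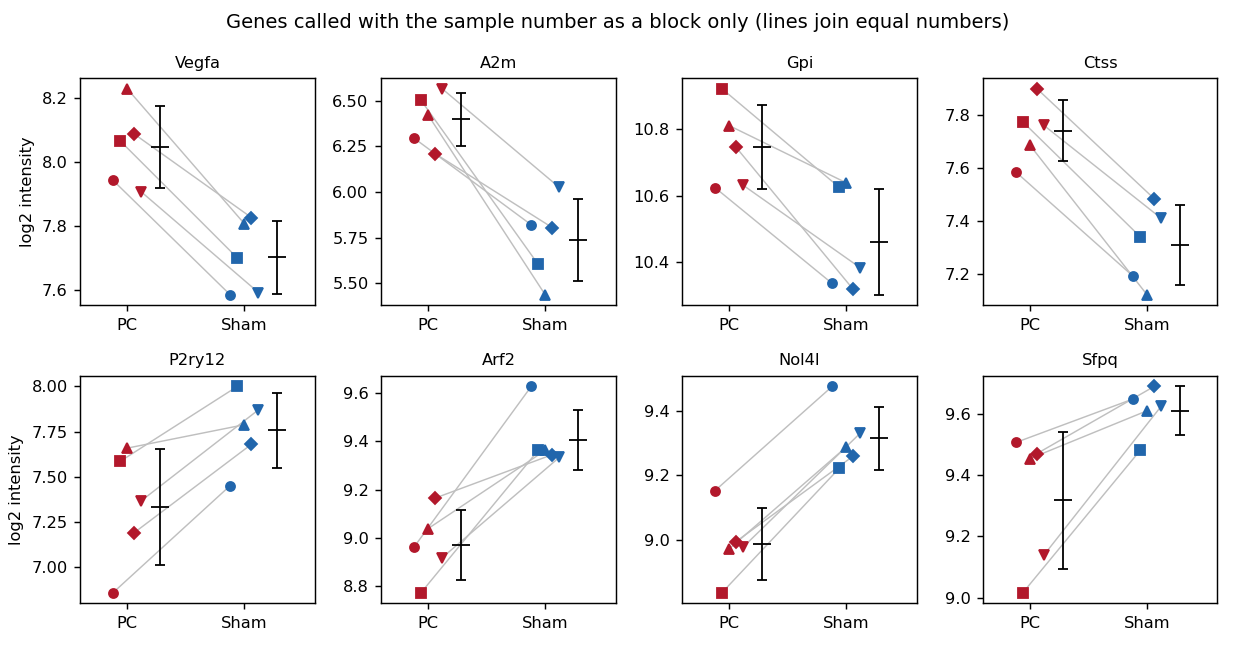
Log2 intensity of 8 genes called only with the sample number as a block, preconditioned (PC, red) left of sham (blue); grey lines join arrays of equal number and black bars give the mean and SD of 5 arrays. In each panel all 5 lines slope the same way, also for Gpi, P2ry12 and Sfpq, whose groups overlap. Selection with the block favours such agreement.

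The other 3 runs of numbers gave a comparison for these 10 arrays. The same contrast called 445 probe sets (2.39%) in numbers 1 to 5, 413 (2.22%) in numbers 6 to 10 and 0 in numbers 16 to 20, where 952 (5.11%) had an unadjusted p under 0.05. These arrays are not shared between runs. Of the 13 probe sets called in numbers 11 to 15, 10 had the same sign in numbers 1 to 5, 11 in numbers 6 to 10 and 6 in numbers 16 to 20, and 4, 5 and 0 were called there in the same direction. Gfap was at 0.53, 1.02, 1.07 and 0.03 over the 4 runs in order of number, Mt2A at 0.18, 0.84, 0.68 and 0.01, and Vwf at 0.49, 0.54, 0.61 and 0.34. Pla1a was at 0.68, 1.30, 1.16 and -0.35.

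The difference in effect between runs was tested for every probe set, and 109 were called against numbers 1 to 5 (0.585%), 52 against numbers 6 to 10 (0.279%) and 3 against numbers 16 to 20 (0.0161%). Apln had the opposite sign, at 1.33 in numbers 1 to 5 and 0.90 in numbers 6 to 10, where it was called higher. Its effect in numbers 11 to 15 differed from these by -2.0 ± 0.16 (limma adjusted p = 1.89e-11) and -1.58 ± 0.16 (limma adjusted p = 8.22e-08). Against numbers 16 to 20 the limma adjusted p was 0.0557. Polr2a was called higher here and lay at -0.14, -0.23 and -0.07 in the other runs. The differences in effect were 0.67 against numbers 1 to 5 (limma adjusted p = 0.018), 0.76 against 6 to 10 (limma adjusted p = 0.00846) and 0.60 against 16 to 20, which did not pass (limma adjusted p = 0.183).

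Several hypoxia and activity genes that were high in numbers 1 to 10 were not called in numbers 11 to 15. Vegfa was at 0.34 in numbers 11 to 15 and 1.42 in numbers 1 to 5, and that difference of -1.08 had a limma adjusted p of 8.01e-08. In the same order, Slc2a1 was at 0.24 and 1.46, Ddit4 at -0.07 and 1.56 and Fos at -0.52 and 2.62, with limma adjusted p values of 5.09e-10, 2.1e-13 and 2.75e-07 for the differences. In the opposite direction, Slco1c1, a thyroid hormone transporter of brain vessels, was at 0.00 in numbers 11 to 15, against -0.58 in numbers 1 to 5 and -0.63 in numbers 6 to 10. It differed by 0.58 and 0.64 (limma adjusted p = 0.000104 and 6.44e-05). Atf7ip, a chromatin protein, was at 0.42 ± 0.12 in numbers 11 to 15, against -0.57 and -0.56, and its differences in effect were 0.99 and 0.98 (limma adjusted p = 0.000282 and 0.000826). All its preconditioned arrays lay above all sham arrays here.

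Against numbers 16 to 20 the 3 called were Prkce (0.67, limma adjusted p = 0.0213), Pla1a (1.5, limma adjusted p = 0.0213) and the noncoding transcript Thumpd3-as1 (-0.90, limma adjusted p = 0.0418). All 3 calls were lost without PC 11, without PC 12 and without PC 15, where 0 remained. Thumpd3-as1 read 75.8 to 110 in preconditioned and 126 to 156 in sham arrays of numbers 11 to 15, a difference of -0.56 ± 0.12 with a limma adjusted p of 0.0625.

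**Figure D5:**
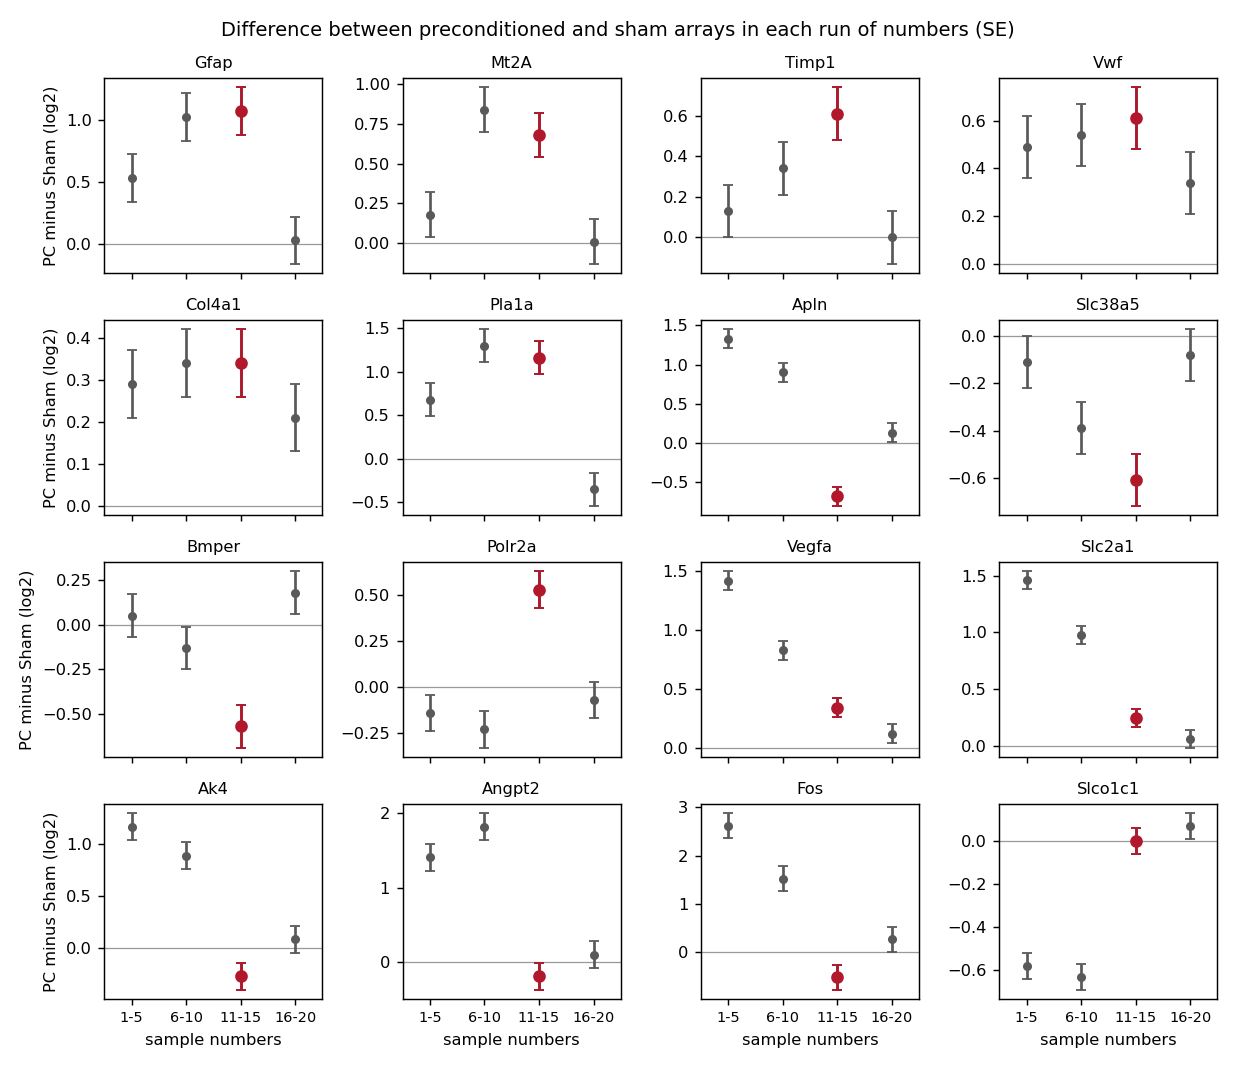
Log2 difference between preconditioned and sham arrays (y axis, different scale in each panel) in the 4 runs of sample numbers (x axis), with the SE of the fit, for 16 genes; numbers 11 to 15 are red and Col4a1 is shown by its brighter probe set. Gfap, Mt2A, Vwf and Pla1a lie above 0 in numbers 6 to 10 and 11 to 15, while Apln lies below 0 and Vegfa, Slc2a1, Ak4, Angpt2, Fos and Slco1c1 lie nearer to 0 than in numbers 1 to 10.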

How the data were processed

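Total RNA of rat cerebral cortex was measured on 40 1-colour arrays. The deposited values are linear intensity values, made with software that the sources used here do not name. The mean of an array without its lowest and highest 2% of deposited values was 150.04 to 150.05 on the 10 arrays described, so they had been scaled. The 57 control probe sets were left out, intensities were floored at 16 and log2 was taken. Probe sets whose mean over all arrays reached the 40th percentile (31.9) were kept. At the floor lay 0.132% of kept values.

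Names came from GEO's platform annotation: 14273 kept probe sets had 1 gene, 309 several and 4043 none. Of 20826 annotated with 1 gene, 20758 matched a RefSeq gene ID (GRCr8).

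The 8 group means were fitted over all arrays with limma 3.58.1 in R 4.3.3 (lmFit, eBayes with a mean trend, 32 residual degrees of freedom, 16 with the sample number as a block). Alternatives covered the arrays fitted, the normalization, the floor, the filter and single arrays. On simulated data with 200 of 18625 probe sets changed, limma found 58.5% of those shifted by 0.5 and 91.0% of those shifted by 1. Of its calls there, 10% were false at a shift of 0.5 and 4.7% at a shift of 1. It found 23.1% when 13 were shifted by 0.5. The simulated noise was normal and independent between arrays, so it held no array that stood apart and no likeness between equal numbers.

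The groups, gene lists and the rule for named genes were chosen with earlier results of these data known. That rule takes every called gene, the 12 smallest p each way, up to 10 each way called with the block, up to 4 per list with an unadjusted p under 0.05, 26 fixed genes and up to 8 per difference between runs. Genes named outside it (Col4a2, Fn1, Egln3, C1qa, Stat3, Snap25, Slc17a7, Ttr) were chosen after their values were seen.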

Additional observations from a re-analysis of the deposited data

Results flagged for a closer look

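Single arrays stood apart from the other 4 of their group for 6 genes and 1 called probe set, out of 166 pairs of a probe set and a group tested, and chance alone gives about 5% by this criterion. Angptl4, a HIF and PPAR target that regulates lipid uptake, read 178 in PC 11, with the next array at 158. Fos read 50.4 in PC 12 and Egr1, another immediate early factor, 444 in PC 12, with the next preconditioned arrays at 31.2 and 357. Fkbp5 read 185 in PC 11, with the next at 125. Probe set 1371237_a_at, annotated to several genes, read 600 in PC 12, with the next at 216. Arf2 read 790 in Sham 11, with the next at 658, and Slc1a1 read 418 in Sham 15, with the next at 461.

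The preconditioning effect in numbers 11 to 15 differed from that in numbers 1 to 5, by a test of the difference itself in limma, for 20 named genes. Over all 18625 probe sets tested, 109 (0.585%) were called in this difference. The rule for named genes takes some of them by their difference between runs, and it was set with earlier results known. The 20 are therefore partly selected by the values given here, and their number is not a rate. The same holds for the differences from the other runs below. Apln differed by -2.0, Angpt2 by -1.6, Plat, the tissue plasminogen activator, by -1.20 and Vegfa by -1.08. Among HIF targets and metabolic genes, Slc2a1 differed by -1.22, Egln3 by -0.78, Ak4 by -1.46, Kdm3a by -1.19 and Ddit4 by -1.63. Fos differed by -3.14 and Egr1 by -1.23, the glucocorticoid target Sgk1 by -0.65 and Errfi1, a feedback inhibitor of the EGF receptor, by -0.82. The RNA helicase Ddx17 differed by -0.47, Nol4l by -0.50 and Vcl, vinculin of cell adhesions, by -0.50. Upward differences were 0.67 for Polr2a, 0.58 for Slco1c1, 1.04 for the iron exporter Slc40a1 and 0.99 for Atf7ip.

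Against numbers 6 to 10 the effect differed by -1.58 for Apln, -2.01 for Angpt2, -0.76 for Plat, -0.74 for Slc2a1, -1.17 for Ak4 and -0.52 for Ddit4. It differed by -2.04 for Fos, -0.50 for Sgk1, -0.73 for Errfi1, -0.62 for Ddx17 and -0.73 for Vcl. Upward, it differed by 0.76 for Polr2a, 0.64 for Slco1c1, 0.87 for Slc40a1 and 0.98 for Atf7ip. Against numbers 16 to 20 it differed by 0.67 for Prkce, 1.5 for Pla1a and -0.90 for Thumpd3-as1. The limma adjusted p values of these differences lay between 2.1e-13 and 0.0418.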

How the results depend on the processing

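The 13 calls of numbers 11 to 15 became 34 with the sample number as a replicate block, 3 on the 10 arrays alone and 1 on these with the replicate block. They were 41 (18 higher, 23 lower) without PC 5 and PC 6, which stand apart in other runs, 22 (14 and 8) after quantile normalization, 22 with the filter at the 60th percentile and 0 with numbers 11 and 12 left out. Median centring gave 11 calls, split 6 and 5, against 9 and 4, with the limma adjusted p of Prkce at 0.0522 and of Vwf and Mt2A at 0.0606. Leaving out 1 array gave 3 (PC 12) to 20 (PC 13), with 8 without PC 11, 7 without Sham 11 or Sham 13 and 5 without Sham 15, and leaving out 2 numbers 0 to 9. All 13 remained under quantile normalization and without PC 5 and PC 6, and 7 without the filter.

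The 109 differences from numbers 1 to 5 became 189 with array quality weights. The 52 from numbers 6 to 10 became 83 (9 and 74) with median centring, against 17 and 35, and 81 with weights, and leaving out 1 array gave 32 to 53. The 3 from numbers 16 to 20 became 12 with the replicate block, 13 without PC 5 and PC 6, 6 with quantile normalization, 5 with median centring, 0 with no filter, 5 with robust eBayes and 8 with weights, and leaving out 1 array gave 0 to 12. The causes were not tested. Of 83 named genes and probe sets, 13 had a value that turned in sign, none of them called here. With numbers 11 and 12 left out, Shc4 was -0.29 (0.06 with all 10 arrays), Tie1 -0.05 (0.31), Slc17a7 -0.06 (0.12), Ttr 0.16 (-0.14) and Plat 0.02 (-0.06). With numbers 13, 14 and 15 left out, Ddit4 was 0.02 (-0.07), Egr1 0.01 (-0.02), Fkbp5 0.09 (-0.01), Slco1c1 -0.04 (0.00), Vcl 0.05 (-0.06), Slc1a1 0.08 (-0.02), Stat3 0.20 (-0.05) and Snap25 -0.14 (0.02). Slco1c1 was -0.02 with median centring, Snap25 -0.02 with quantile normalization and Shc4 -0.02 with weights. Leaving out 1 array gave Plat -0.14 to 0.00, Egr1 -0.10 to 0.01, Fkbp5 -0.14 to 0.06, Slco1c1 -0.03 to 0.05, Shc4 -0.07 to 0.16, Slc1a1 -0.08 to 0.01, Stat3 -0.15 to 0.06 and Snap25 -0.01 to 0.06.

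Equal numbers were not taken as pairs: the correlation of their deviations from the group means was over 0.1 in 2 of 5 numbers here, 3 of 5 correlating best with their own number, and in 15 of 20 over all runs (17 of 20), from 0.03 to 0.39. Settings with 11 and 12, with 13, 14 and 15 or with 2 numbers left out were added after seeing the data. The number of arrays limits the precision, and dim genes such as Pla1a lie near the floor.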

Other observations

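Beyond the genes of the comparison above, some stress and growth genes had preconditioned and sham arrays that did not overlap without being called. Over all probe sets tested 412 (2.21%) did not overlap, and 13 of these were called, so the trait is not particular to the genes named here. Hspa1a, the inducible heat shock protein 70, was dim, at 40.6 to 57.7 in preconditioned and 25.6 to 38.9 in sham arrays. It differed by 0.53 ± 0.18 (limma adjusted p = 0.324), while the 21 heat shock genes measured had a median of -0.04. Gas6, a ligand of the TAM receptors through which cells clear debris, read 509 to 703 in preconditioned and 457 to 501 in sham arrays. Its difference was 0.30 ± 0.07 (limma adjusted p = 0.0625), but its 2 dimmer probe sets lay at -0.11 and -0.08. The zinc finger gene Zfp267 differed by 0.36 ± 0.08 (limma adjusted p = 0.0708) and also had a second probe set, which lay at 0.00. Spc25, a kinetochore protein of dividing cells, read 93.6 to 119 in preconditioned and 121 to 156 in sham arrays, and differed by -0.40 ± 0.11 (limma adjusted p = 0.158). The 45 cell cycle genes measured had a median of -0.02.

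Some lists leaned slightly to 1 side with few or no calls. Of 27 ribosomal protein genes measured, 24 were above 0, with a median of 0.08 that was 0.03 after quantile normalization. Of 27 genes for cholesterol and fatty acid synthesis, 22 were below 0, with a median of -0.07. The cell adhesion gene Ncam1 led the 20 immature neuron and growth cone genes at 0.35 ± 0.09 (limma adjusted p = 0.175), and 16 of the 20 were above 0, although a dimmer Ncam1 probe set lay at 0.02. Ncam1 was at 0.68 over numbers 11 and 12 and 0.13 over numbers 13, 14 and 15, a split that also divides the sexes. The genes of that list with an unadjusted p under 0.05 upward numbered 3 (15%, against 5.18% of all genes tested). With numbers 11 and 12 left out there were 0. These lists share arrays and are described, not tested.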
